A study of Rattus norvegicus with 6 samples.

Results

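The 9 genes Fas, Btg2, Cdkn1a, Mdm2, Ccng1, Sesn1, Gadd45a, Zmat3 and Tp53inp1 are targets of the transcription factor p53 that act in cell-cycle arrest, in feedback on p53 and in cell death. They were taken by symbol from the deposited count table, which held all 9 among its 16849 genes, and all 9 passed the filter on low counts. The cells were RSC96, an immortalised rat Schwann cell line, labelled wild type. In 3 groups of 2 libraries they had been kept with the piezoelectric material PVDF@PDA, with the non-piezoelectric material PCL@PDA, or as Control. Both material groups are labelled as hypoxia, which was modelled by 24 h in medium conditioned by macrophages, so each differed from Control in the material and in the hypoxia label together. The free text of the PCL@PDA libraries calls their non-piezoelectric material PVDF@PDA, and the titles and treatment labels were followed. The labels do not say whether the Control cells were given such medium, and they do not say that the 2 libraries of a group came from separate cultures, so p-values measure only the spread between these libraries, which may be technical. Each group had 1 library of batch 1 (replicate 1) and 1 of batch 3 (replicate 3). The titles number the 2 libraries 1 and 3 and name no batch, and the library names number them 1 and 2.

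p53 is held at a low level by the ubiquitin ligase Mdm2 and is released when DNA is damaged or cells are under stress. It then raises genes that stop the cycle, such as the CDK inhibitor Cdkn1a (p21), genes that restrain p53 itself, such as Mdm2, and genes of the death receptor and mitochondrial death pathways. p21 also acts through the pocket proteins and the DREAM complex to lower genes of mitosis, and several of these targets are regulated by other stress factors as well. Schwann cells re-enter the cycle after nerve injury and leave it again as they differentiate.

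Libraries held 32760123 to 35389307 counted reads, and 3 reads corresponded to 0.0848 to 0.0916 CPM, the read count scaled to the library total. The PCL@PDA replicate 3 library stood apart from the other material libraries, at -28.5 on the second principal component against 6.09 to 11.6. Control replicate 1 was at 13.7 there and Control replicate 3 at -13.6. The cell type label was poorly borne out by its markers. Sox10 was not analysed here, Ngfr and Cdh19 had 0 to 4 reads per library and S100b 2 to 28, whereas Pmp22 had 1396 to 1938 and Ncam1 3368 to 4716. The summed FPKM of the 11 Schwann cell markers in the table was 36.3 to 38.8 in Control and lay above that range, at 43.7 to 46.6, in every material library. The sum of 9 macrophage markers was 4.55 to 4.95 against 5.06 to 5.19, with the leukocyte antigen Ptprc at 0 to 1 read, and the sum of 5 fibroblast markers was 214 to 227 against 218 to 223. Within these lists Pmp22 and Ncam1 rose and the receptor gene Erbb3 fell with both materials (log2 -0.72 and -0.61), and Pdgfra (0.65 and 0.57) and Col1a1 (0.68 and 0.71) rose while the far more abundant Col1a2 fell (-0.15 and -0.14). The part of these markers in the differences between groups was not tested.

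Per gene length, the 9 genes spanned a wide range of levels in RSC96 cells. Levels here are FPKM, read counts scaled by gene length and library total, as the mean over all 6 libraries. Gadd45a, a stress-induced inhibitor of the G2/M kinase complex, had 572 FPKM and ranked above 99.4% of the genes in the table. Mdm2 had 292 FPKM (98.8th percentile) and the cyclin-like gene Ccng1, whose product recruits a phosphatase to Mdm2, had 189 FPKM. Cdkn1a followed with 58.7 FPKM (91.9th percentile). Tp53inp1, a p53 cofactor and autophagy protein, lay at 17.3 FPKM and Zmat3, an RNA-binding zinc finger protein, at 16.7 FPKM. These neighbours were not separated, since Tp53inp1 ranged from 16.2 to 18.4 FPKM over the libraries and Zmat3 from 15.5 to 17.6. The antiproliferative gene Btg2 (9.81 FPKM), the death receptor gene Fas (7.29 FPKM) and the sestrin gene Sesn1 (2.07 FPKM) were the lowest. Btg2 ranged from 8.46 to 12.3 FPKM and Fas from 5.67 to 9.77, with Btg2 above Fas within every library.

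**Figure D1:**
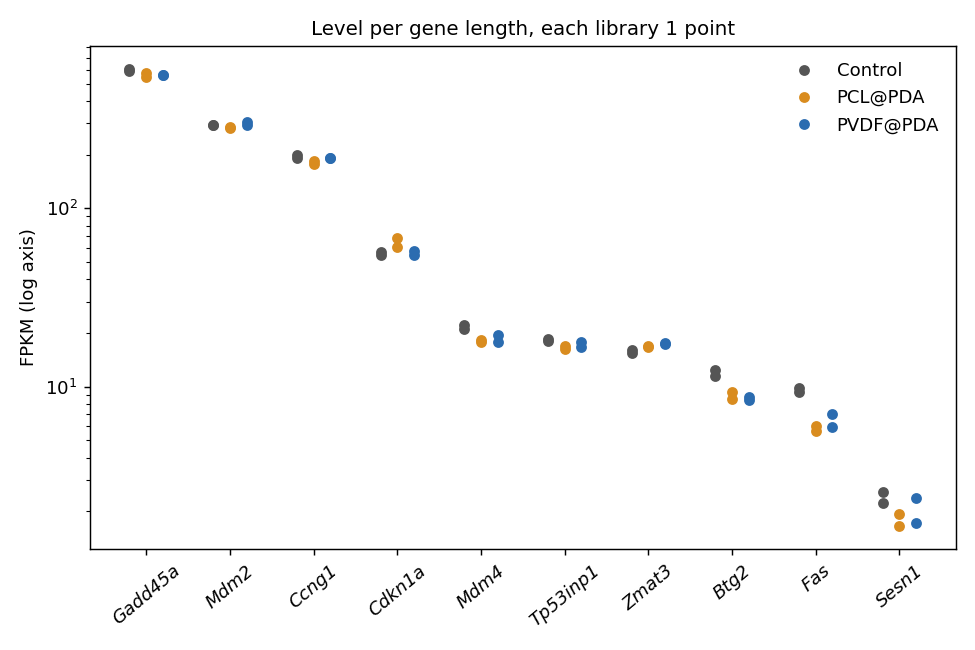
FPKM on a log axis for the 9 genes and for Mdm4, 1 point per library, coloured by group. Gadd45a lies near 572 FPKM and Sesn1 near 2.07, and differences between groups are small beside the differences between genes.

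Of the genes that arrest the cycle, Btg2 fell with both materials, and neither Cdkn1a nor Gadd45a passed the test in either comparison with Control. All differences from here on are log2 differences of CPM scaled by TMM, tested by edgeR's quasi-likelihood test and adjusted by the Benjamini-Hochberg method over 13018 genes. In such bulk libraries fewer expressing cells and less RNA per cell cannot be told apart. Cdkn1a, which inhibits the CDKs of the G1/S transition, stood at 138 and 132 CPM in PVDF@PDA replicates 1 and 3, at 146 and 160 in PCL@PDA and at 141 and 134 in Control. The PVDF@PDA and Control libraries overlapped and both PCL@PDA libraries lay above them. Against Control the difference was -0.03 with PVDF@PDA (95% interval -0.15 to 0.10, adjusted p = 0.834) and 0.16 with PCL@PDA (0.04 to 0.28, adjusted p = 0.0578). With the replicate number as a block the PCL@PDA value passed (adjusted p = 0.0227), as it did with scaling only by library totals (0.20, 0.0130). It also passed without PCL@PDA replicate 1 (0.23, adjusted p = 0.00206), where PCL@PDA is the 1 library that stood apart and is assumed to vary like the other groups. Within batch 1 the PCL@PDA difference was 0.05 and within batch 3 it was 0.27.

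Btg2, which slows G1 progression and recruits the deadenylase complex to mRNA, stood at 21.9 and 21.1 CPM in PVDF@PDA, at 21.5 and 22.9 in PCL@PDA and at 29.5 and 31.5 in Control. All 4 material libraries lay below both Control libraries. The level fell by 29.4% with PVDF@PDA (log2 -0.50, SE 0.11, adjusted p = 0.000413) and by 27.1% with PCL@PDA (log2 -0.46, SE 0.11, adjusted p = 0.00106). Within batch 1 the log2 difference was -0.43 with PVDF@PDA and -0.46 with PCL@PDA, and within batch 3 it was -0.58 and -0.46.

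Gadd45a stood at 672 and 674 CPM in PVDF@PDA, at 697 and 649 in PCL@PDA and at 751 and 723 in Control, with the material libraries all below Control. The log2 difference was -0.13 with each material and did not pass (adjusted p = 0.0652 with PVDF@PDA and 0.0560 with PCL@PDA). With the replicate block both passed (0.0149 and 0.0117), as they did under DESeq2 (0.0431 and 0.0316), and the PVDF@PDA value passed when only the 4 libraries compared were fitted (0.00526). Without PCL@PDA replicate 1 both also passed (0.00417 and 0.000846), and without PCL@PDA replicate 3 the PVDF@PDA value did (0.00425). In percent of the Control level these differences were -8.71 and -8.69.

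The promoters of Cdkn1a and Btg2 are shown because both are known p53 targets that arrest the cycle, of which Btg2 passed the test against Control and Cdkn1a did not. Each is the 300 bases from 250 before to 50 after the RefSeq start in the GRCr8 assembly, 5′ to 3′ on the gene's strand, and capitals mark matches to the p53 motif described further on. Cdkn1a lies at chr20:7150682-7150981 (plus strand) and Btg2 at chr13:48087641-48087940 (minus strand).
Cdkn1a: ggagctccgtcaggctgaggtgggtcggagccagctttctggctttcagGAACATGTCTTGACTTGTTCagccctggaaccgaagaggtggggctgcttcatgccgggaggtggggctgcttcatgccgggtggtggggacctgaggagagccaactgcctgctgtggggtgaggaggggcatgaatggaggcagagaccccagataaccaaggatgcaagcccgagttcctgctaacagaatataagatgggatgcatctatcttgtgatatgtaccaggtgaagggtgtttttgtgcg
Btg2: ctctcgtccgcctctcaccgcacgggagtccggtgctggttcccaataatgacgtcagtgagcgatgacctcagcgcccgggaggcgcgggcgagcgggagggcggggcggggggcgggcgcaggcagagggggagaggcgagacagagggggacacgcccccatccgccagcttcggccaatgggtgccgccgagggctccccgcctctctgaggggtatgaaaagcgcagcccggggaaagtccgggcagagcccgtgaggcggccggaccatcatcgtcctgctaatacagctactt

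The feedback genes were abundant and moved little. Mdm2, the ligase that targets p53 for degradation, stood at 872 and 911 CPM in PVDF@PDA, at 846 and 840 in PCL@PDA and at 899 in both Control libraries. PVDF@PDA lay on either side of Control and PCL@PDA lay below it. Its difference from Control was -0.01 with PVDF@PDA (95% interval -0.11 to 0.09) and -0.09 with PCL@PDA (-0.19 to 0.00), and neither passed (adjusted p = 0.906 and 0.186). Ccng1 stood at 613 and 604 CPM in PVDF@PDA, at 590 and 555 in PCL@PDA and at 647 and 619 in Control. The material libraries were all below Control, and PCL@PDA was the lowest group. With PCL@PDA Ccng1 fell by 9.58% (log2 -0.15, SE 0.05, adjusted p = 0.0328), and with PVDF@PDA the difference was -0.06 (adjusted p = 0.497). The call with PCL@PDA ended without any 1 library except PCL@PDA replicate 1 (adjusted p = 0.0606 to 0.336), with scaling only by library totals (log2 -0.10, adjusted p = 0.109), under limma on log2 FPKM (0.159 to 0.205) and when the 4 libraries compared were fitted alone (0.0703).

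Among the 9 genes the largest fall was that of Fas. Fas, the receptor for the death ligand FasL, stood at 17.8 and 15.0 CPM in PVDF@PDA, at 15.3 and 14.2 in PCL@PDA and at 24.5 and 25.3 in Control. The material libraries all lay far below Control, and the 2 material groups overlapped. Fas fell by 34.3% with PVDF@PDA (log2 -0.61, SE 0.12, adjusted p = 0.000200) and by 40.7% with PCL@PDA (log2 -0.75, SE 0.12, adjusted p = 4.26e-06). Within batch 1 the log2 difference was -0.46 and -0.67, and within batch 3 it was -0.76 and -0.84. Behind these values were 486 to 585 reads per material library, with 816 and 883 for the Control libraries.

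Tp53inp1, which binds p53 and promotes its proapoptotic activity, stood at 108 and 101 CPM in PVDF@PDA, at 102 and 96.5 in PCL@PDA and at 114 and 111 in Control. All 4 material libraries were below Control. It fell by 11.9% with PCL@PDA (log2 -0.18, SE 0.06, adjusted p = 0.0312), while with PVDF@PDA the difference was -0.11 (adjusted p = 0.252). The call with PCL@PDA ended without PCL@PDA replicate 3 (adjusted p = 0.119), without Control replicate 1 (0.229) or Control replicate 3 (0.0804), with scaling only by library totals (0.0997) and under limma on log2 FPKM (0.187 to 0.223). Zmat3, which controls splicing and the stability of target mRNAs, stood at 127 and 129 CPM in PVDF@PDA, at 124 and 121 in PCL@PDA and at 121 and 117 in Control. It was the only one of the 9 genes with every material library above both Control libraries, and neither difference passed (log2 0.11, adjusted p = 0.222 and log2 0.04, adjusted p = 0.670).

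Sesn1, a sestrin that restrains mTORC1, was the least abundant of the 9 with 195 to 302 reads per library. It stood at 5.92 and 8.21 CPM in PVDF@PDA, at 5.70 and 6.60 in PCL@PDA and at 9.06 and 7.81 in Control. PVDF@PDA overlapped Control, and PCL@PDA lay below it. The log2 difference was -0.25 (95% interval -0.63 to 0.13, adjusted p = 0.408) with PVDF@PDA and -0.45 (-0.84 to -0.07, adjusted p = 0.0849) with PCL@PDA. Neither passed after adjustment, although the PCL@PDA interval lay below 0. Both intervals were wide at this depth and spread.

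**Figure D2:**
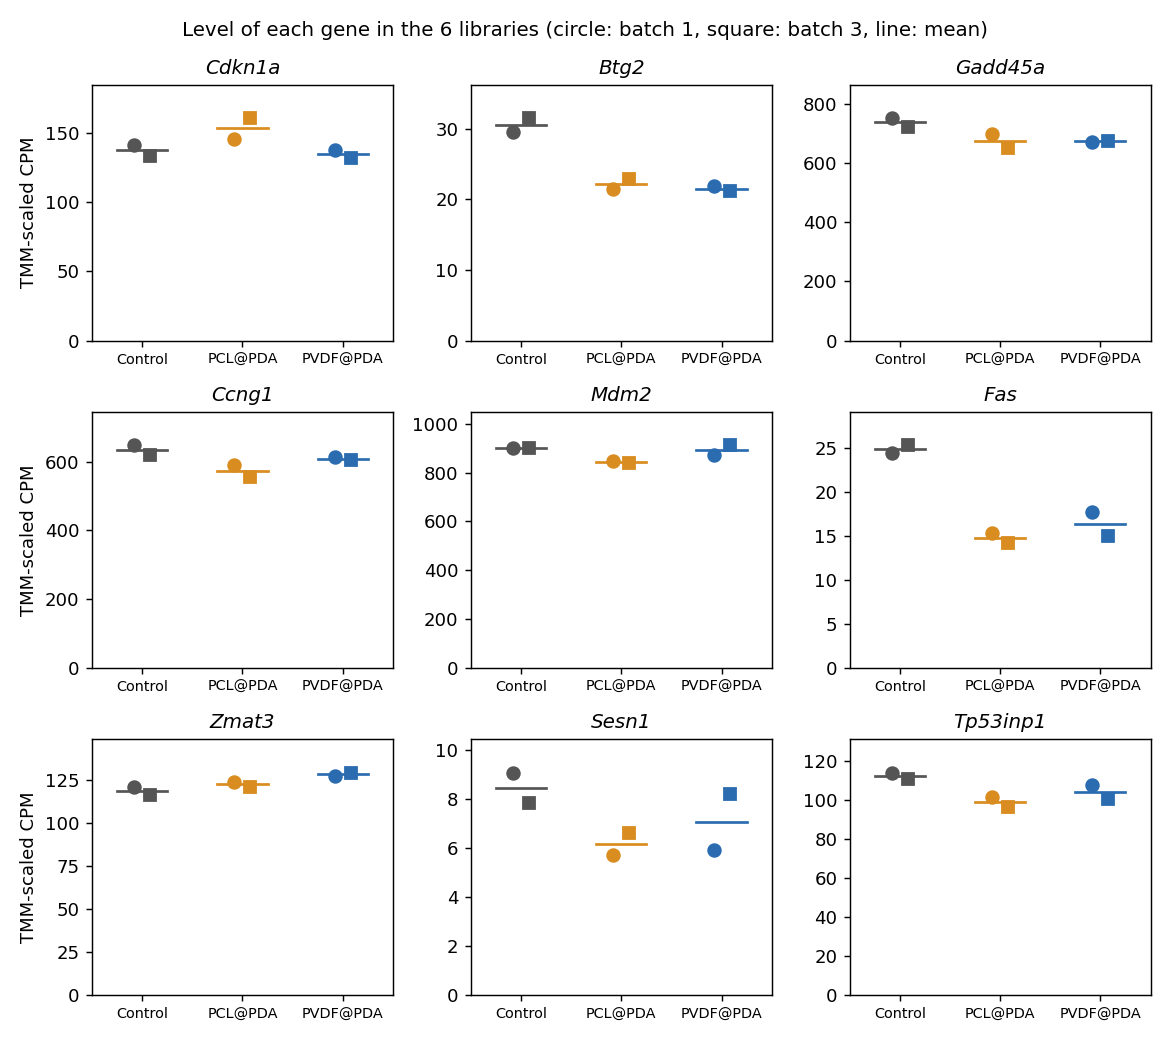
TMM-scaled CPM of each of the 9 genes in the 6 libraries, with axes from 0, circles for batch 1, squares for batch 3 and a line at the group mean. Fas and Btg2 show Control points well above all material points, from 24.5 to 25.3 and from 29.5 to 31.5 CPM, and Mdm2 is nearly level.

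The promoters of Fas and Ccng1 are shown as that of the gene with the largest fall and that of the other gene, beside Cdkn1a, with a 20-base p53 site. Fas lies at chr1:241211905-241212204 (plus strand) and Ccng1 at chr10:25684827-25685126 (minus strand), in the same assembly and marked in the same way.
Fas: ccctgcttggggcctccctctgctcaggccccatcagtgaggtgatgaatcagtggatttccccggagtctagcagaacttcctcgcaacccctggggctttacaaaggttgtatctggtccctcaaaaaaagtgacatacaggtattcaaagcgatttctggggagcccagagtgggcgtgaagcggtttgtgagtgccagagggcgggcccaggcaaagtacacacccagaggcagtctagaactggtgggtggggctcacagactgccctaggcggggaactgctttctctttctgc
Ccng1: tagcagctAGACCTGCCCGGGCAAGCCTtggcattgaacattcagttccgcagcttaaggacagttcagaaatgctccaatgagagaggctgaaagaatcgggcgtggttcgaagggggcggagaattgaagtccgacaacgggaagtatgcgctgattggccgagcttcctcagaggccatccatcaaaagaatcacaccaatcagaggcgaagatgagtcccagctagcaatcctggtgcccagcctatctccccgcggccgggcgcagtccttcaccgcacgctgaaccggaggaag

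The p53 motif searched was the consensus decamer of the p53 response element, which reads the same on both strands, without mismatch. The 20-base site was 2 adjacent decamers with at most 2 mismatches and the invariant C and G of each decamer kept, so a 20-base match can overlap an exact decamer. RefSeq promoters were found for 7 of the 9 genes, not for Zmat3 and Tp53inp1. The decamer was in 4 of these 7, against 6.83% of the 12114 promoters of tested genes. The 20-base site was in 2 of them, Cdkn1a (GAACATGTCTTGACTTGTTC, starting at position -201 from the start site, 1 mismatch) and Ccng1 (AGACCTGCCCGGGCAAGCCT, at -242, 1 mismatch), against 0.231% of the promoters of tested genes. Sesn1 had a decamer at -172 (AAGCTTGTTT) and Gadd45a at -48 (GGGCTAGCCC). Fas, Btg2 and Mdm2 had neither within these 300 bases. A match is a description of letters and shows no binding, and functional p53 sites of such genes can lie outside this window.

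Against Control, none of the 9 genes rose in either material group by edgeR's test. At an unadjusted p below 0.05 in that test, only Cdkn1a was higher, with PCL@PDA (0.0122). Besides the falls named next, Gadd45a was lower at that level with both materials (0.0115 and 0.0116) and Sesn1 with PCL@PDA (0.0205). DESeq2 also called 0 of the 9 higher. The shares of all genes at the unadjusted level and under DESeq2 were not counted. With PVDF@PDA 2 of 9 fell, Fas and Btg2, where 15.7% of all genes tested were called, 8.9% as lower and 6.79% as higher. With PCL@PDA 4 of 9 fell, Fas, Btg2, Ccng1 and Tp53inp1, where 20.1% of all genes were called, 11.3% as lower and 8.77% as higher. Both Fas and Btg2 fell in both groups, as did 6.99% of all genes. The median log2 difference of the 9 genes was -0.11 with PVDF@PDA and -0.15 with PCL@PDA, against 0.01 over all genes in each comparison. Taken without sign, the median difference over all genes was 0.153 with PVDF@PDA and 0.167 with PCL@PDA. Material libraries all lay below both Control libraries for 5 of the 9 genes (Fas, Btg2, Ccng1, Gadd45a and Tp53inp1), where 20.3% of all genes did so, and above for 1, Zmat3, where 19.3% did. Taken singly, both PVDF@PDA libraries were below both Control libraries for those 5 genes (29.2% of all genes) and above for Zmat3 (29.4%). Both PCL@PDA libraries were below for 7, with Mdm2 and Sesn1 added (27.8% of all genes), and above for 2, Cdkn1a and Zmat3 (28.3%). Both comparisons share the Control libraries and so are not independent. The count of genes that fell with PCL@PDA was 2 without PCL@PDA replicate 3 and without either Control library. Under limma it was also 2 with a pseudocount of 1 or 0.1 added to FPKM. With no filter on low values and a pseudocount of 1 it was 1 with PCL@PDA and 0 with PVDF@PDA. The shares of all genes that limma called are not given here, so these lower counts cannot be set against them.

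**Figure D3:**
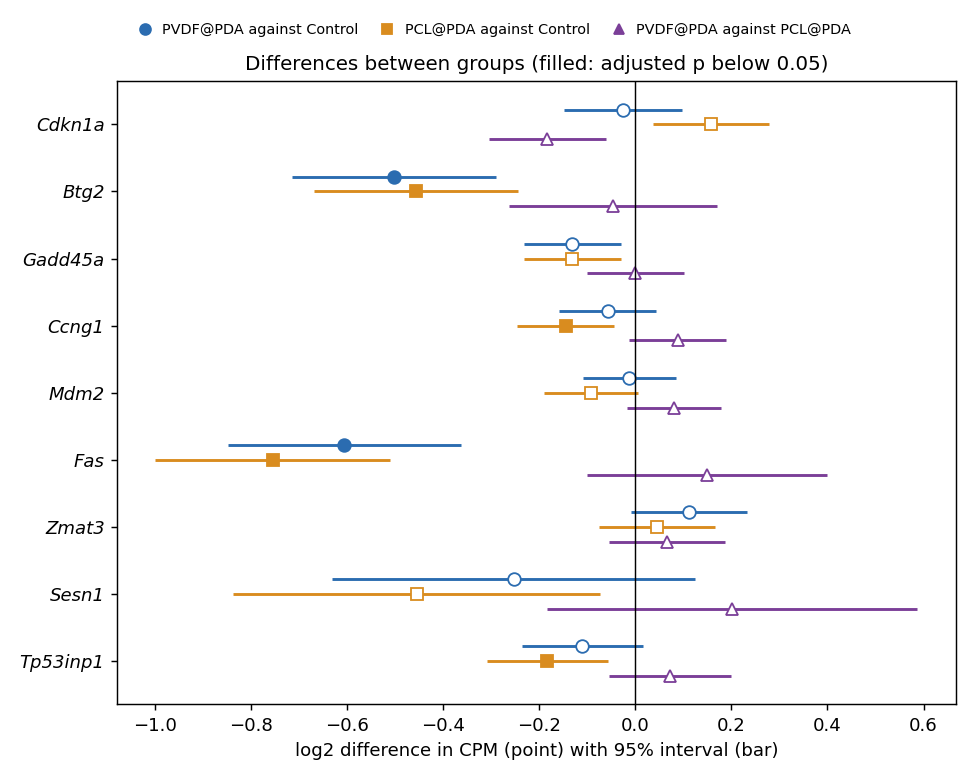
Log2 differences of CPM for the 9 genes in the 3 comparisons, with 95% intervals from the quasi-likelihood fit and filled symbols where the adjusted p is below 0.05. Fas and Btg2 lie between -0.75 and -0.46 against Control, and no symbol of PVDF@PDA against PCL@PDA is filled.

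PVDF@PDA set against PCL@PDA asks whether cells differ between a piezoelectric and a non-piezoelectric material. The materials also differ in the polymer itself, PVDF or PCL, so the piezoelectric property and the polymer cannot be told apart here. In this comparison 0 of the 9 genes passed edgeR's test, where 0.0615% of all genes did, 0.0538% as higher and 0.00768% as lower with PVDF@PDA. DESeq2 and limma also called 0 of the 9, and the shares of all genes that they called are not given here. Of the 9, only Cdkn1a had an unadjusted p below 0.05. The PVDF@PDA libraries were both below the PCL@PDA libraries for Cdkn1a, as for 18.9% of all genes, and both above for Mdm2, Ccng1 and Zmat3, as for 19.2%. Cdkn1a was at 135 ± 4.21 CPM (SD, n = 2) with PVDF@PDA and 153 ± 10.4 with PCL@PDA, a log2 difference of -0.18 (95% interval -0.31 to -0.06, unadjusted p = 0.00388, adjusted p = 0.401 by edgeR's quasi-likelihood test). It was -0.08 within batch 1 and -0.28 within batch 3, and without PCL@PDA replicate 1 it was -0.25 with an adjusted p of 0.00309, with the lone PCL@PDA library assumed to vary like the other groups. The interval ran from -0.10 to 0.10 for Gadd45a, from -0.02 to 0.18 for Mdm2, from -0.01 to 0.19 for Ccng1, from -0.05 to 0.19 for Zmat3 and from -0.05 to 0.20 for Tp53inp1. It was wider for Btg2 (-0.26 to 0.17), Fas (-0.10 to 0.40) and Sesn1 (-0.18 to 0.59). The intervals were narrow for the abundant genes and wide for the scarce ones.

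Among 18 tested regulators of p53 there were 1 rise and 3 falls in each material group, where 15.7% of all genes were called with PVDF@PDA and 20.1% with PCL@PDA, with a median log2 difference of 0.00 with PVDF@PDA and -0.08 with PCL@PDA. The checkpoint kinase Chek1 rose by 0.40 with PVDF@PDA and 0.33 with PCL@PDA (adjusted p = 1.04e-05 and 0.000281). Mdm4, the relative of Mdm2 that masks the p53 activation domain, fell by 0.25 and 0.30 on the log2 scale (adjusted p = 0.00179 and 0.000149). The damage kinase Atr fell by 0.26 and 0.27 (0.00289 and 0.00147) and the acetyltransferase Kat5 by 0.24 and 0.27 (0.0381 and 0.0136). Without Control replicate 1 the PVDF@PDA calls of Mdm4 (0.0719), Atr (0.169) and Kat5 (0.590) and the PCL@PDA calls of Atr (0.126) and Kat5 (0.453) ended. With PVDF@PDA, Mdm4 was also lost without PVDF@PDA replicate 1 (0.112), Atr without PVDF@PDA replicate 3 (0.166) and Kat5 without either (0.147 and 0.176). Kat5 with PVDF@PDA was lost too under DESeq2 (0.0872) and with scaling only by library totals (0.0941). Under limma on log2 FPKM the PVDF@PDA calls of all 3 ended (0.0822 to 0.303), as did the PCL@PDA calls of Atr and Kat5 (0.110 to 0.230). The phosphatase Ppm1d, another p53-induced brake, differed by 0.04 and -0.12 (adjusted p = 0.880 and 0.619).

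Other p53 targets changed in both directions. Among 39 tested there were 4 rises and 6 falls for PVDF@PDA and 5 rises and 7 falls for PCL@PDA, against 15.7% and 20.1% of all genes called, with median log2 differences of -0.02 and 0.05. The cytokine Lif fell most clearly, from 104 and 106 CPM in Control to 65.9 and 69.7 with PVDF@PDA and 62.4 and 61.2 with PCL@PDA (log2 -0.63 and -0.76, adjusted p = 3.57e-10 and 8.12e-13). The replication clamp Pcna rose from 123 CPM in both Control libraries to 152 and 143 with PVDF@PDA and 157 and 149 with PCL@PDA (log2 0.27 and 0.32, adjusted p = 0.000930 and 5.69e-05, and 0.0651 with PVDF@PDA without its replicate 1). The spindle protein gene Ckap2 fell by 0.39 and 0.45 on the log2 scale (adjusted p = 0.00100 and 0.000122, the former 0.0586 without PVDF@PDA replicate 3). Rps27l, whose reads could be split with near-identical ribosomal copies, fell by 0.19 and 0.29 (0.0197 and 0.000158), and its PVDF@PDA call ended without PVDF@PDA replicate 3 (0.269) or Control replicate 1 (0.225). Sesn2, the more abundant sestrin, fell by 0.25 with PVDF@PDA (0.000351), and its fall of 0.14 with PCL@PDA (0.0374) ended without any 1 library other than PCL@PDA replicate 3 (0.0706 to 0.188). Under limma on log2 FPKM with the filter the Rps27l call with PVDF@PDA (0.0842) and the Sesn2 call with PCL@PDA (0.205) ended. The death effectors Bax and Bbc3 (PUMA) and the stress cytokine Gdf15 did not pass, with adjusted p-values from 0.214 to 0.917, although without PCL@PDA replicate 1 Bax (log2 0.27, 0.0226) and Gdf15 (0.45, 0.0332) passed with PCL@PDA.

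Relatives of the 9 genes gave 0 rises and 5 falls of 16 tested with PVDF@PDA and 2 rises and 6 falls with PCL@PDA. The lists overlap, and the falls with each material include Mdm4 and Sesn2, already counted above as a p53 regulator and as another p53 target. Of all genes, 8.9% fell and 6.79% rose with PVDF@PDA and 11.3% fell and 8.77% rose with PCL@PDA. Btg1, the paralogue of Btg2, fell by 0.19 and 0.22 on the log2 scale (adjusted p = 0.0102 and 0.00205), a smaller fall than that of Btg2, and the difference between the paralogues was not tested. Both Btg1 calls ended when Control replicate 1 was left out (0.169 and 0.0759), and that of PVDF@PDA also without either of its own libraries (0.125 and 0.0673). Zmat1 fell by 0.41 and 0.48 (0.00564 and 0.000731), the former not without PVDF@PDA replicate 1 (0.229) or Control replicate 1 (0.105). Under limma with the filter the PVDF@PDA calls of Btg1 (0.0875) and Zmat1 (0.148) and the PCL@PDA call of Zmat1 (0.0876) ended. Tob2, another antiproliferative gene of the Btg family, rose by 0.42 with PCL@PDA (0.000439), and its 0.25 with PVDF@PDA passed only in some alternatives (0.0555, and 0.0310 with the replicate block).

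Among 14 tested genes of other CDK inhibitors and the pocket protein complex there were 2 rises and 1 fall for PVDF@PDA and 2 rises and 2 falls for PCL@PDA (15.7% and 20.1% of all genes called), with median log2 differences of 0.02 and 0.01. Cdkn1b (p27) stood at 122 and 123 CPM in PVDF@PDA, at 122 and 105 in PCL@PDA and at 120 and 122 in Control (log2 0.02 and -0.08, adjusted p = 0.887 and 0.409, and -0.20 with PCL@PDA and 0.0139 without PCL@PDA replicate 1). The repressor E2F gene E2f5 fell by 0.35 and 0.37 on the log2 scale (adjusted p = 0.00206 and 0.000780), the former not without PVDF@PDA replicate 1 (0.0627) or Control replicate 3 (0.0680). Cdkn2c (p18) fell by 0.31 with PCL@PDA (0.0217), a call that ended without PCL@PDA replicate 3 (0.0931) or either Control library (0.155 and 0.0704). The pocket protein gene Rbl1 and the DREAM subunit gene Lin54 rose by 0.15 to 0.22 (adjusted p = 0.00936 to 0.0464), and without either Control library neither passed in either comparison (0.0551 to 0.243). Rbl1 was also lost under DESeq2 with PVDF@PDA (0.0972) and under limma with the filter in both comparisons (0.102 and 0.0502).

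Genes that are lowered in cell-cycle arrest fell in most cases. Among 22 tested there were 17 falls and 4 rises for PVDF@PDA and 16 falls and 5 rises for PCL@PDA. Of all genes, 8.9% fell and 6.79% rose with PVDF@PDA, and 11.3% fell and 8.77% rose with PCL@PDA. The median log2 differences of the list were -0.48 and -0.49. Ccnb1, the mitotic cyclin, fell from 292 and 303 CPM in Control to 180 and 190 with PVDF@PDA and 188 and 182 with PCL@PDA (log2 -0.69 in both, adjusted p = 3.59e-14 and 2.51e-14). Ccna2 fell by 0.65 and 0.64, Bub1 by 0.45 and 0.62, Top2a by 0.52 and 0.60 and the proliferation marker Mki67 by 0.36 and 0.38 on the log2 scale. Mcm2, a subunit of the replicative helicase, rose from 68.3 and 70.1 CPM in Control to 101 and 89.9 with PVDF@PDA and 99.4 and 117 with PCL@PDA (log2 0.46 and 0.65, adjusted p = 4.01e-06 and 1.43e-09). Ccne2, Mcm5 and E2f1 also rose with both materials and Mybl2 with PCL@PDA alone, where the difference between the materials was not past the test. With a library left out the falls numbered 15 to 17 with PVDF@PDA and 14 to 17 with PCL@PDA. In the same libraries Fas and Btg2 fell with both materials, and Ccng1 and Tp53inp1 with PCL@PDA alone. Cdkn1a, Mdm2, Sesn1, Gadd45a and Zmat3 did not pass the test against Control. In some alternatives Cdkn1a passed with PCL@PDA as higher and Gadd45a with both materials as lower. A link between the 9 genes and this list was not tested.

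**Figure D4:**
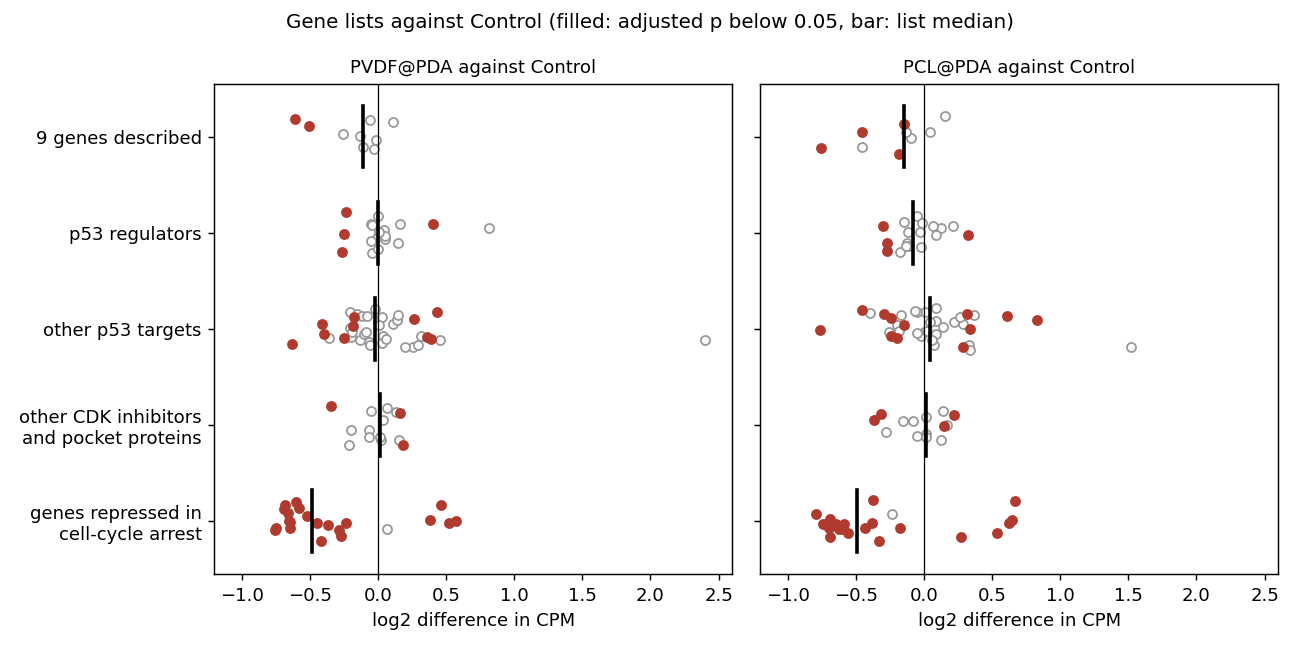
Log2 differences of CPM against Control for the 9 genes and for 4 lists of related genes, 1 point per tested gene, filled where the adjusted p is below 0.05, with a bar at the list median. Genes repressed in cell-cycle arrest have medians of -0.48 and -0.49 and the 9 genes of -0.11 and -0.15. The remaining lists have medians from -0.08 to 0.05.

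The list for the Fas receptor pathway, which includes the ligand gene Faslg and the TNF receptor gene Tnfrsf1a, also held genes that fell. Of 11 tested, 3 fell with each material (8.9% and 11.3% of all genes fell), and 1 rose with PCL@PDA (8.77% of all genes). Cflar, the inhibitor of caspase 8 (c-FLIP), fell from 112 and 110 CPM in Control to 76.2 and 71.5 with PVDF@PDA and 73.5 and 73.2 with PCL@PDA (log2 -0.59 in both, adjusted p = 1.32e-09 and 5.78e-10). The initiator caspase gene Casp8 fell by 0.31 and 0.35 (0.00731 and 0.00179), the former not without PVDF@PDA replicate 1 (0.0930) or Control replicate 3 (0.119). Under limma with the filter both Casp8 calls ended (0.0877 and 0.0521). Bid rose by 0.18 with PCL@PDA (0.0440), a call that ended without any 1 library other than PCL@PDA replicate 1 (0.0656 to 0.364).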

How the data were processed

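RNA of 6 libraries of RSC96 cells, 3 groups of 2 assigned by their titles, was compared. The count table deposited by the authors holds raw read counts per gene, and the authors' FPKM values are those counts divided by a gene length and the library total (checked for 15690 genes, relative tolerance 1e-05). Per the submitters' processing notes, the assembly was mRatBN7.2 and DESeq2 1.4.5 was among the tools. What aligner, annotation and counting strand applied was not given in the sources used here. In the newer GRCr8 annotation Fas and Gadd45a each overlap 1 uncounted locus.

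The model was edgeR 4.0.16 under R 4.3.3, using TMM scaling, filterByExpr (13018 genes kept, 3831 removed) and a robust quasi-likelihood fit of 3 group means. The fit left 3 residual degrees of freedom, while the spread shared over genes carried a median of 50.3. SEs, intervals and p-values therefore rest mostly on that shared spread and less on the spread of the gene itself. Tests were 2-sided, and a call meant an adjusted p (Benjamini-Hochberg) below 0.05. The fit was tested on simulated counts. Alternatives, among them limma 3.58.1 and DESeq2 1.42.0, are in the closing section. The labels give batch 1 or 3 with the replicate number, so numbers pair the libraries, although deviations from the group means correlated weakly across genes within a batch (r = -0.02, 0.04 and 0.13).

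The 9 genes and all lists were chosen with earlier results of these data known. From each list up to 5 genes with the smallest p that passed were named, plus fixed genes (among them Mdm4, Ppm1d, Bax, Bbc3, Gdf15, Cdkn1b, Mki67 and Ccnb1). Cdkn2a, Cdkn2b, Perp, Tp53i11 and Zmat4 were not analysed here, and some genes that the rule takes are not reported here. Ccne2, Mcm5, E2f1 and Mybl2 were named after their values were seen.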

Additional observations from a re-analysis of the deposited data

How the results depend on the processing

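Each comparison was recomputed under 16 alternatives. No value of the 9 genes that passed in any fit changed its sign, and 399 of 432 values stayed on their side of the threshold, 20 lost and 13 gained a call. For 32 other genes taken by the naming rule 1396 of 1536 stayed, 122 lost and 18 gained one. Of the 9 genes, the number called with PVDF@PDA against Control was 2, and 0 with limma on log2(FPKM + 1) without a filter (adjusted p = 0.0664 for Fas and 0.0566 for Btg2). With PCL@PDA it was 4, and 2 with limma on log2(FPKM + 1) and on log2(FPKM + 0.1) and 1 without the filter (0.0565 for Btg2). The shares of all genes that limma called are not given here. Leaving out 1 library gave 2 to 6 with PCL@PDA, 2 to 3 with PVDF@PDA and 0 to 1 between the materials. With the replicate block the counts were 0 between the materials, 3 with PVDF@PDA and 6 with PCL@PDA, with Gadd45a added in both and Cdkn1a in the latter, and over all genes that fit called 59, 2591 and 3051. DESeq2 called 3 and 5 of the 9 genes against Control, with Gadd45a added, and the share of all genes that it called was not counted. Among the other named genes the block changed the call of Tob2 with PVDF@PDA. In that fit the spread of 86.2% of genes was set wholly by the shared trend. Over all genes the calls were 8, 2042 and 2616 and, with 1 library left out, 0 to 827, 1031 to 2869 and 1346 to 3173. Scaling by library totals moved the median of all genes from 0.01 to 0.04 and 0.05 against Control. Sesn1, with 195 to 302 reads per library, had the widest intervals of the 9 genes.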

Other observations

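The library PCL@PDA replicate 3, which stood apart on the second principal component, held the highest level of several p53 pathway genes. Cdkn1a was at 160 CPM there and at 132 to 146 in the other libraries. The death effector Bax was at 51.1 CPM against 39.1 to 44.6, Bbc3 at 9.55 against 5.84 to 7.68 and the stress cytokine Gdf15 at 16.7 against 11.7 to 12.4. Of the 39 other p53 targets tested, 15 (38.5%) had their highest level in this library, as did 22.4% of all 13018 genes. Among the 9 genes described it held the highest level of Cdkn1a alone and the lowest level of 5, and among the 18 p53 regulators the lowest level of 11 (61.1%), against 23.3% of all genes. This pattern was noticed after the values were seen.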
